A study of Mus musculus with 4 samples.

Results

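The epidermal differentiation complex is a cluster of genes on mouse chromosome 3 that builds the outer layer of the skin. It was examined here in 2 mouse germ cell lines, GC-2 and GC-1, on expression arrays. Members were all non-control probes whose gene name in the scanner files begins with Lce or Sprr and a number, is S100a and a number, or is Lor, Ivl, Flg, Flg2, Rptn, Hrnr, Crnn or Tchh. The rule found 65 probes of 56 genes, of 56605 probes and 24813 reference genes on the array. Of these, 50 probes belonged to 43 genes of the Lce, Sprr and single-gene groups, called epidermal members below, and 15 probes to 13 S100a genes. No probe was named Flg. All 65 probes lay between chromosome 3 positions 90315191 and 93368496 on the mm9 build used by the scanner files. The genes were chosen by name, but the group was selected on its detection flags and on its signal in GC-2 against GC-1, so their differences between the lines are given as a description and without p-values.

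GC-2, known as GC-2spd(ts), is a mouse spermatocyte line immortalised by SV40 large T antigen together with temperature-sensitive p53. GC-1, known as GC-1 spg, is a line of type B spermatogonia immortalised by SV40 large T antigen without that p53. Both are single established lines, so a difference between them is a difference between lines and not between germ cell stages at large. Total RNA of cells grown alike and harvested near confluence was labelled with Cy3 and hybridised to one-colour Agilent arrays, 2 for GC-2 and 2 for GC-1. The labels do not say that replicates were separate cultures, so the spread between the arrays of a line may be technical.

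Keratinocytes that leave the basal layer of the epidermis replace their plasma membrane by a cornified envelope, a shell of proteins joined by transglutaminases. Involucrin (Ivl) and loricrin (Lor), the small proline-rich proteins (Sprr) and the late cornified envelope proteins (Lce) are its building blocks, and filaggrin-like proteins and trichohyalin (Tchh) bundle keratin or harden the hair follicle. The S100a genes at both ends of the cluster encode small proteins with a pair of EF hands, which bind calcium in most but not all of them. Several of these genes are expressed far beyond the skin.

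The values below are relative signals, that is, the processed signal of a probe in percent of the 75th percentile of all probes on the same array. That percentile was a processed signal of 416 and 199.9 for GC-2 against 666 and 693 for GC-1, and 62.0% and 57.5% of probes were well above background in GC-2 against 64.9% and 63.5% in GC-1. A relative signal had to reach 2.08% and 3.86% in GC-2, against 1.37% and 1.65% in GC-1, for any probe to count as well above background, so dim genes were easier to measure in GC-1. All 4 arrays lay on 1 slide with each line in a row of its own, so position and line cannot be told apart. The 8 E1A probes, which read spike-in RNA, were 2.06 ± 0.46 log2 higher in GC-2 (mean and SD over probes), and scaling to them lowers every difference below by that amount. Of 12 germ cell genes, 2 were measured in GC-2 and 4 in GC-1, where measured means well above background on both arrays of the line. Prm1 and Tnp1, chromatin genes of late germ cells, were above background on all 4 arrays, and Ddx4 and Acr on all but 1 of the arrays, which was a GC-2 array for each. Dazl, Kit, Mael, Piwil1 and Dmc1 were above background on no array, so few of these markers bore out the germ cell label.

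Sequences are shown first for the Lce1 genes with the largest differences and for Sprr1a and Ivl, since these carry most of the contrast described below. Each is the window from 250 bases before to 50 bases after the annotated start, read 5′ to 3′ on the gene's strand, from RefSeq on GRCm38.p6. Capitals mark the TATA box letters TATAAA, the AP-1 site letters TGANTCA and the letters ATAAAAGG, all searched on both strands, and ATAAAAGG can overlap TATAAA. ATAAAAGG was added after the Lce1 windows had been read. The windows lie at chr3:92752289-92752588 (Lce1g, minus strand), chr3:92778850-92779149 (Lce1i, minus), chr3:93019012-93019311 (Lce1m, minus), chr3:92678997-92679296 (Lce1c, plus), chr3:92485832-92486131 (Sprr1a, minus) and chr3:92573686-92573985 (Ivl, minus).
Lce1g: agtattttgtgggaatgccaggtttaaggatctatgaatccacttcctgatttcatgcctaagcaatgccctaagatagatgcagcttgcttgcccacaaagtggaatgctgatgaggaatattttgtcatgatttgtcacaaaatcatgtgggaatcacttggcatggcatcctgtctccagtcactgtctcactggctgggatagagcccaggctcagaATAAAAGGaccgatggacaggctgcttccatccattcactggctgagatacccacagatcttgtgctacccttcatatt
Lce1i: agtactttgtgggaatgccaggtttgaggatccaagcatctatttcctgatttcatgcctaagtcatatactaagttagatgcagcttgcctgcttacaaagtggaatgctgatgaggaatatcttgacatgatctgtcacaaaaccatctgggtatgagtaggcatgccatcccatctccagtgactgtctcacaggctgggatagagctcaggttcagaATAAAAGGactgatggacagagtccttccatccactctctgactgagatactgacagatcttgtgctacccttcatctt
Lce1m: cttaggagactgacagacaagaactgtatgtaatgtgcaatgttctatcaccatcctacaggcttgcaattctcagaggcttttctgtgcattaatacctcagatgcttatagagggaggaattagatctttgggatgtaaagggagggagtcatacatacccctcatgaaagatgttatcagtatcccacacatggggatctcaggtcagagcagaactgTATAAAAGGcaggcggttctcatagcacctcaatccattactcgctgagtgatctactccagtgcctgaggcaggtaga
Lce1c: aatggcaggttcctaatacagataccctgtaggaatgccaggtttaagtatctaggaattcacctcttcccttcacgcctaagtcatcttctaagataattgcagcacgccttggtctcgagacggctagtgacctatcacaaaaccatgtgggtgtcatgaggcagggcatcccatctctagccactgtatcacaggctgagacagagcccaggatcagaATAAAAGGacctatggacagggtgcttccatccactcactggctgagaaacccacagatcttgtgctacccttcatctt
Sprr1a: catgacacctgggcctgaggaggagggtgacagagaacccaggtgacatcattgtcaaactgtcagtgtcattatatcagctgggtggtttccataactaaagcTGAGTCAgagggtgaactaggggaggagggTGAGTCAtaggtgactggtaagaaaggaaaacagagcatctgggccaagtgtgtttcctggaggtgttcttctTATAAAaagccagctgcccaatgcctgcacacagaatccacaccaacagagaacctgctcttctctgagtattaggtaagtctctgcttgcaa
Ivl: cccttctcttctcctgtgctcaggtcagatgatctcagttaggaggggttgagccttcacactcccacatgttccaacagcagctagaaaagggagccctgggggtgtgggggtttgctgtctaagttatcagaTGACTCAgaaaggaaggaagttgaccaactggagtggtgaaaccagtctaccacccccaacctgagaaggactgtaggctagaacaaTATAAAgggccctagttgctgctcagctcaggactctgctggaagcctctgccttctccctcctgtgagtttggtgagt

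The 4 Lce1 windows hold ATAAAAGG 28 or 29 bases before the start and no TGANTCA, whereas the Sprr1a window holds TGANTCA at 146 and 116 bases before the start and TATAAA at 43. The Ivl window holds TGANTCA at 116 and TATAAA at 29 bases before the start. Windows were found for 50 of the 56 members, 54 in all, and none was found for Lce1f, Sprr2g, Sprr2j-ps, S100a2, S100a10 and S100a14. TGANTCA was in 9 of 13 Sprr windows (69.2%) and 0 of 13 Lce1 windows, against 7.81% of 32851 windows of all genes. TATAAA was in 10 of 13 Sprr windows (76.9%) and 2 of 13 Lce1 windows (15.4%), against 13.6% of all windows. ATAAAAGG was in 10 of 13 Lce1 windows (76.9%), 3 of 6 Lce3 windows and 1 of 13 Sprr windows, against 1.76% of all windows. The Grainyhead site letters AACCNGTT were in 1 of 40 windows of epidermal members (2.5%), that of Rptn, against 2.09% of all windows. None of the Lce1 and Sprr windows held them, which at so low a share is no contrast. Paired Lce1 windows were 48.0% to 86.0% identical, with a median of 63.5%, and the Lce1g and Lce1i windows were the most alike at 86.0%. The S100a windows held TATAAA in 4 of 14, TGANTCA in 2 of 14 and AACCNGTT in 2 of 14, those of S100a3 and S100a9. A match says only that these letters lie in the window.

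Of the 56 members, 32 were measured in GC-2 and 34 in GC-1, with 29 measured in both. That is 57.1% of members in GC-2 and 60.7% in GC-1, against 62.5% and 68.5% of all 24813 genes. Among the 43 epidermal members, 22 were measured in GC-2 and 21 in GC-1, and 19 in neither line. Lce1g, Lce1i and Lce1m were measured in GC-2 and on no GC-1 array, and Ivl and Sprr2d in GC-1 and on no GC-2 array. Of the 13 S100a genes, GC-2 gave a measured signal for 10 and GC-1 for 13. In GC-2, S100a9 was above background on no array, and S100a8 and S100a14 on replicate 1 only. The epidermal members above background on no array were Crnn, Flg2, Hrnr, Rptn, Lce1b, Lce1h, Lce3e, Lce3f, Sprr1b, Sprr2a1, Sprr2i, Sprr3 and Sprr4, 13 genes that include the filaggrin-like genes Flg2 and Hrnr. A further 6 were above background on 1 array only, Lce1f and Lce3a on a GC-2 array and Lce1a1, Lce1d, Lce1e and Sprr2f on a GC-1 array. In bulk RNA, fewer cells that express a gene and less of its RNA per cell cannot be told apart.

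**Figure D1:**
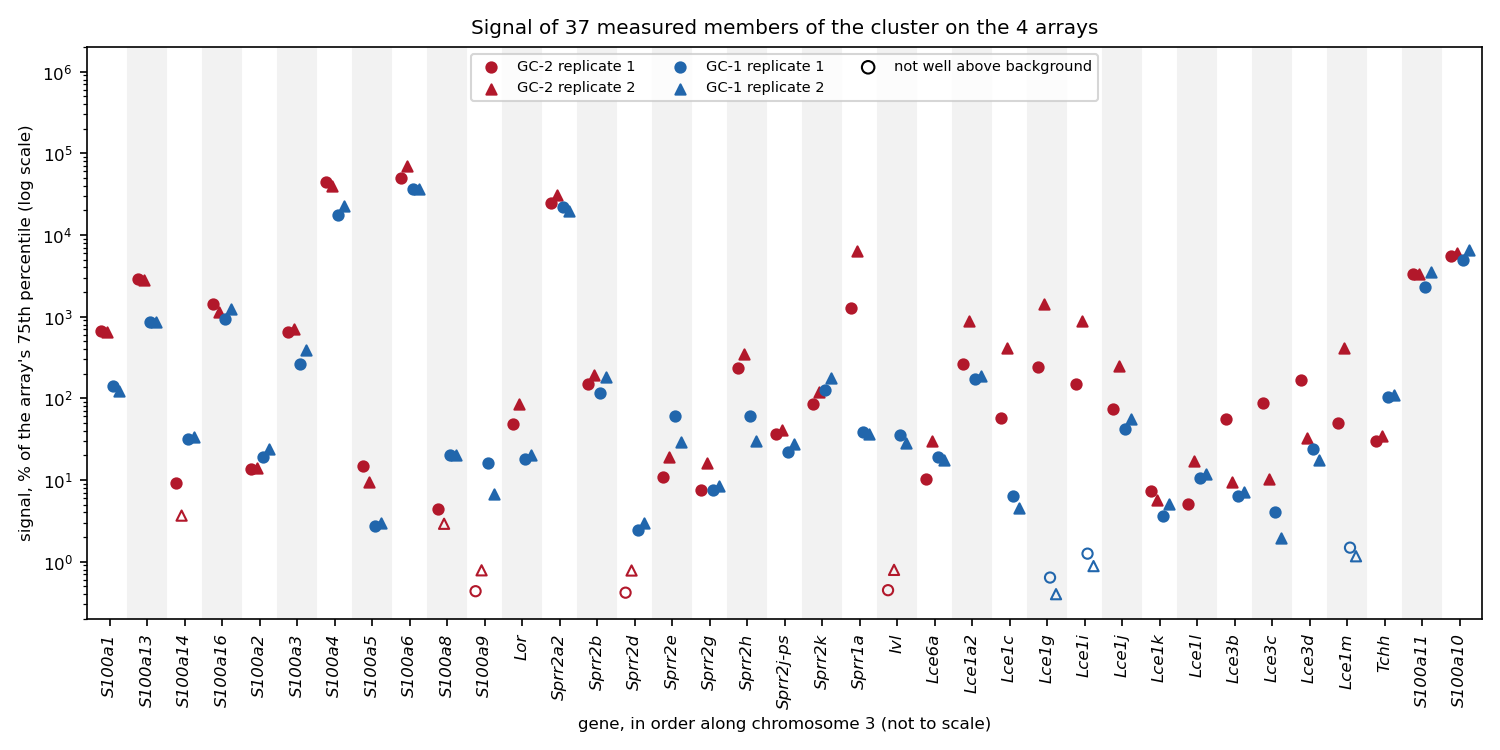
Relative signal (percent of the array's 75th percentile, log scale) of the 37 members tested between the lines, in their order along chromosome 3, with 1 point per array, GC-2 in red left of GC-1 in blue, and open points where the probe was not well above background. Lce1g, Lce1i, Lce1m, Lce1c and Sprr1a lie far apart between the lines, Ivl lies apart in the other direction, and the GC-2 points of most Lce genes lie apart from each other.

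In limma, 7682 of 17437 genes (44.1%) passed an adjusted p of 0.05 between the lines, with 3192 (18.3%) higher and 4490 (25.7%) lower in GC-2. Of the 37 members with a probe that could be tested, 24 epidermal and 13 S100a, 20 were past that threshold, with 13 higher and 7 lower in GC-2. The epidermal members gave 8 higher and 4 lower of 24, with a median log2 difference, GC-2 minus GC-1, of 1.04, and the S100a genes gave 5 higher and 3 lower of 13, with a median of 0.23. Over all genes tested the median was -0.13. The rule used this contrast, so nothing is read from these counts. The split depended on the scaling, since with E1A scaling 5 epidermal members were higher and 12 lower and 0 S100a genes were higher and 10 lower, and the median of all genes was then -2.19. With the median of each array, that median was -0.44, 2273 genes were higher and 5848 lower, and the S100a genes gave 3 higher and 4 lower. Quantile normalization gave 4 higher and 4 lower S100a genes. Background correction by normexp gave 13 higher and 2 lower epidermal members and 3 higher and 0 lower S100a genes.

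Among the late cornified envelope genes, 4 of the 14 Lce1 genes were far higher in GC-2 and were bright on both GC-2 arrays. Lce1g had a relative signal of 241% and 1431% on the GC-2 arrays, against 0.638% and 0.399% on the GC-1 arrays, neither of which was above background. Its difference was at least 391-fold. Lce1i had 149.6% and 877% in GC-2, against 1.25% and 0.881% in GC-1, again not above background there, a difference of at least 241-fold. Both genes were thus above the array's 75th percentile on both GC-2 arrays and at background on both GC-1 arrays. Lce1m, which lies on the far side of the Lce3 genes, had 49.4% and 412% in GC-2 against 1.48% and 1.16% in GC-1, where it was not above background, and was at least 91.1-fold higher. Lce1c was above background on all 4 arrays, with 56.7% and 414% in GC-2 against 6.37% and 4.60% in GC-1, a difference of 4.82 ± 0.91 log2 (SE, n = 2 arrays per line, as for all fitted differences below). With only 1 GC-1 array in the fit, the Lce1c difference (5.06 when replicate 1 was left out and 4.59 when replicate 2 was) no longer passed the threshold. Each bound rests on the mean of both GC-2 arrays, so it does not hold for replicate 1 alone, which was the lower. Without GC-2 replicate 2 the Lce1m difference was 5.23 log2. The differences of these 4 genes kept their sign under E1A scaling. With normexp correction, which dampens dim signals, they were past the threshold at 5.80 log2 for Lce1g, 5.00 for Lce1i, 3.81 for Lce1m and 3.40 for Lce1c.

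The other measured Lce1 genes were not past the threshold. Lce1a2 had 262% and 872% in GC-2 against 171% and 188% in GC-1, and Lce1j had 74.1% and 246% in GC-2 against 41.5% and 55.0% in GC-1. For both, the GC-2 arrays lay above the GC-1 arrays, with differences of 1.41 ± 0.57 and 1.5 ± 0.58 log2 that turned negative under E1A scaling (-0.65 and -0.56). Both were past the threshold with normexp correction (1.23 and 1.27) and with the replicate number as a block. Their differences were 2.28 and 2.37 log2 without GC-2 replicate 1, and 0.55 and 0.63 without GC-2 replicate 2. Lce1k had 7.38% and 5.62% in GC-2 against 3.61% and 5.04% in GC-1, and Lce1l had 5.11% and 17.2% in GC-2 against 10.7% and 11.7% in GC-1, so that the lines overlapped for Lce1l. With normexp correction Lce1k was past the threshold (0.96), and under E1A scaling it was -1.46. Of the 8 measured Lce1 genes, 7 hold ATAAAAGG in their window, and Lce1k does not. Lce6a, a lone member between Ivl and the Lce1 genes, had 10.4% and 29.6% in GC-2 against 19.2% and 17.4% in GC-1, and its 2 other probes were not above background.

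Lce3 genes, which in human skin are known for induction after barrier injury, were brighter on the first GC-2 array than on the second. Lce3c had 87.0% and 10.2% in GC-2 against 4.09% and 1.97% in GC-1, a difference of 3.39 ± 1.01 log2 that was past the threshold. It was not past it with quantile normalization (3.12), E1A scaling (1.33), no filter on dim probes, the authors' deposited table (3.34), or with GC-1 replicate 1 (3.92) or 2 (2.86) left out. Lce3b had 55.8% and 9.38% in GC-2 against 6.31% and 7.10% in GC-1. Lce3d had 166.8% and 32.9% in GC-2 against 23.6% and 17.5% in GC-1. For all 3 genes both GC-2 arrays lay above both GC-1 arrays, yet Lce3b (1.77 ± 0.81 log2) and Lce3d (1.86 ± 0.75 log2) were not past the threshold, and their sign turned under E1A scaling. With normexp correction Lce3b (1.65) and Lce3d (1.74) were past it, as was Lce3d with the replicate number as a block. Without GC-2 replicate 1 they were 0.49 and 0.69 log2, and without GC-2 replicate 2 they were 3.06 and 3.04. These probes may not be 3 separate readings, because they share sequence, though binding to RNA of the other Lce3 genes was not tested. The alignments held 40 identical bases of 41 aligned between Lce3b and Lce3c, and 41 of 44 between Lce3c and Lce3d. A 25-base stretch that lies in all 3 probes and within these alignments is shown, with the 1 letter of Lce3c that differs from Lce3b in capitals and none in Lce3d, from probes on chromosome 3 (mm9) that start at 92737872 (Lce3b), 92749506 (Lce3c) and 92762368 (Lce3d).
Lce3b: tagtcttgttttgtctgatcctgga
Lce3c: tagtcttgttttAtctgatcctgga
Lce3d: tagtcttgttttgtctgatcctgga

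The probes of Lce1c and Lce1m, in contrast, aligned with no other probe on the array. They are given in full because the GC-2 levels of these genes rest on them, Lce1c at chr3:92484400-92484459 and Lce1m at chr3:92822315-92822374 (mm9).
Lce1c: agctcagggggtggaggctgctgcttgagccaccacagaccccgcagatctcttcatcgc
Lce1m: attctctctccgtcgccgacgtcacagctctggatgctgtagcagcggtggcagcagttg
The Lce1g and Lce1i probes shared 24 identical bases of 25 aligned. Probes were set against each other and not against transcripts, so binding of these probes to RNA of other Lce1 genes was not tested.

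The difference between the arrays of a line was not the contrast that chose the group, although the detection flags that did also decide which probes can be compared here. Among probes above background on both arrays of a line, 4.41% of 32061 differed at least 2-fold between the GC-2 arrays and 6.03% of 34966 between the GC-1 arrays, after the median difference had been set to 0. Lce1m was 7.87-fold higher on GC-2 replicate 2 than on replicate 1, and 0.0281% of probes lay at least as far apart. Lce1c was 6.89-fold, Lce1g 5.60-fold and Lce1i 5.53-fold higher on replicate 2, and Lce1l, Lce1a2 and Lce1j 3.17-fold, 3.14-fold and 3.13-fold. Thus 7 of the 8 measured Lce1 genes were more than 3-fold apart in 1 direction, whether or not past the threshold between the lines. Lce1k was the exception, 1.39-fold lower on replicate 2. Sprr1a moved with the 7 genes (4.80-fold higher on replicate 2), as did Lce6a (2.69-fold) and, less far, Sprr2g (2.01-fold).

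The Lce3 genes lay apart in the other direction. Lce3c was 9.02-fold lower on GC-2 replicate 2 than on replicate 1, with 0.0156% of probes at least as far apart, Lce3b 6.30-fold lower and Lce3d 5.38-fold lower. These opposite directions were already in the processed signals before scaling, where Lce1g had 1003 and 2861 on GC-2 replicates 1 and 2, and Lce3c had 362 and 20.4, although the array of replicate 2 was the dimmer one. No S100a probe above background on both arrays of a line differed 2-fold between them except that of S100a9, which was 2.34-fold lower on GC-1 replicate 2. Between the GC-1 arrays the epidermal members more than 2-fold apart were Sprr2a2 (1 probe, 2.17-fold), Sprr2e (2.06-fold), Lce3c (2.05-fold) and Sprr2h (1 probe, 2.01-fold), all lower on replicate 2. Because of this spread, the size of a difference in the Lce group depends on the GC-2 array. Without GC-2 replicate 1 the Lce1c difference was 6.26 log2 and without GC-2 replicate 2 it was 3.39 log2, and for Sprr1a the same values were 7.41 and 5.06 log2. The array's lower overall signal is given above, and its part in these differences was not tested.

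**Figure D2:**
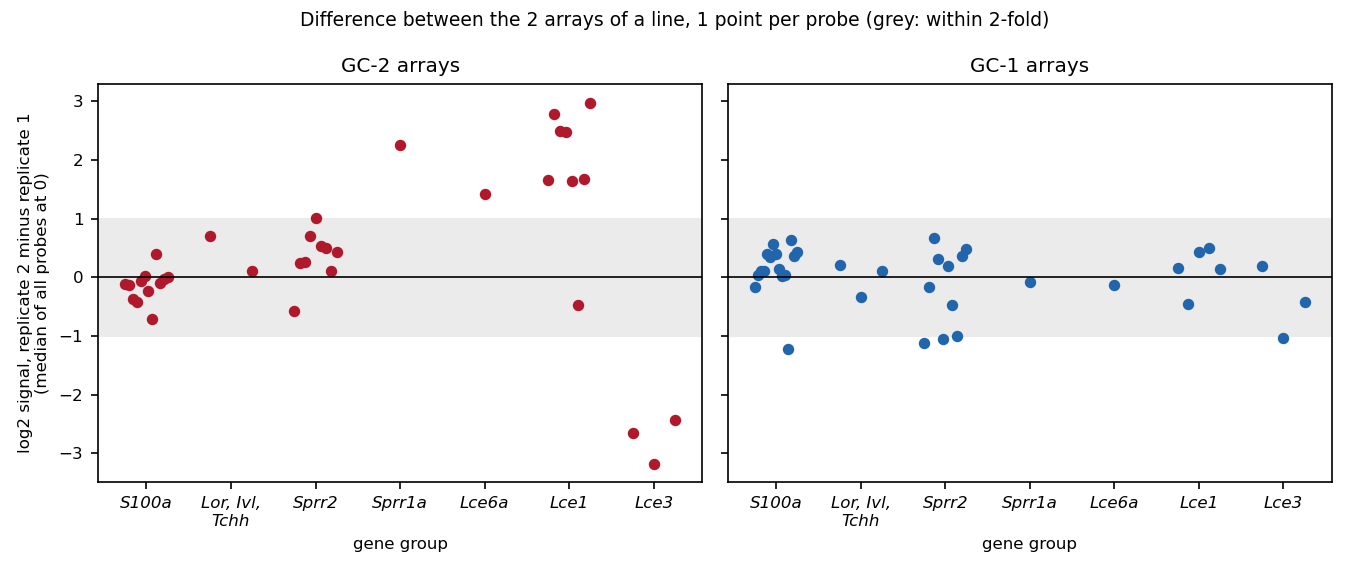
Difference of log2 relative signal between the 2 arrays of GC-2 (left) and of GC-1 (right), replicate 2 minus replicate 1 with the median of all probes at 0, with 1 point for each member probe above background on both arrays and the grey band marking less than 2-fold. In GC-2, 7 of 8 Lce1 points, Sprr1a and Lce6a lie above the band, 1 Sprr2 point (Sprr2g) at its edge and the 3 Lce3 points below it, while the S100a points lie within it.

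Among the small proline-rich genes, whose products cross-link other envelope proteins, Sprr1a stood out. Sprr1a, which is also induced in injured neurons, had 1263% and 6423% in GC-2 against 39.1% and 36.6% in GC-1, a difference of 6.23 ± 0.74 log2. Both GC-2 arrays lay far above both GC-1 arrays, and the sign held under E1A scaling. Its neighbour Sprr1b was above background on no array. Sprr2h was higher in GC-2 by both of its probes, with 233% and 349% in GC-2 against 61.4% and 30.2% in GC-1 for the probe with the higher mean (2.73 ± 0.42 log2, and 0.67 and not past the threshold under E1A scaling). The second Sprr2h probe had 32.6% and 50.2% in GC-2 against 11.6% and 8.24% in GC-1 (2.05 ± 0.33 log2). Sprr2d and Sprr2e went the other way.

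Sprr2e had 11.0% and 18.9% in GC-2 against 61.2% and 29.3% in GC-1, and was 1.55 ± 0.46 log2 lower in GC-2. The Sprr2e value was not past the threshold without GC-1 replicate 1 (-1.02) or GC-2 replicate 1 (-1.16), with normexp background correction (-0.66), with no filter on dim probes or in the authors' deposited table (-1.60). Sprr2d was not above background in GC-2 and had only 2.45% and 3.0% in GC-1, close to the limit of detection, so no fold is given, and with normexp background correction its sign turned (0.69). The remaining measured Sprr2 genes, Sprr2b, Sprr2g, Sprr2j-ps and Sprr2k, had differences between -0.56 and 0.66 log2 and were not past the threshold. Sprr2b had 151.0% and 191.7% in GC-2 against 115.6% and 181.8% in GC-1, and Sprr2k 84.7% and 120.5% in GC-2 against 126.8% and 175.3% in GC-1. Sprr2g had 7.62% and 16.3% in GC-2 against 7.5% and 8.48% in GC-1, and Sprr2j-ps 36.0% and 41.3% in GC-2 against 21.7% and 27.5% in GC-1. The lines overlapped for Sprr2b and Sprr2g and did not for Sprr2k and Sprr2j-ps. Sprr2b and Sprr2k cannot be kept apart with confidence, since their probes share 28 identical bases of 28 aligned.

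The 3 probes of Sprr2a2 disagreed. The probe that stood for the gene had 24770.0% and 30970.0% in GC-2 against 22100.0% and 19420.0% in GC-1, a difference of 0.42 ± 0.25 log2 that was not past the threshold. It shares up to 39 identical bases with 7 probes of other names, so its signal may not be that of Sprr2a2 alone. Whether those probes read other loci was not checked. A second probe had 68.3% and 48.7% in GC-2 against 5.95% and 2.71% in GC-1 (3.85 ± 0.44 log2), and the third was not above background on any array. Among epidermal members, Sprr2a2 and the 3 Lce3 genes have the probes that share the longest stretches with probes of other names. Leaving these genes out, 11 of 20 epidermal members were past the threshold, with 7 higher and 4 lower. Leaving out Lce1g, Lce1i, Sprr2b and Sprr2k as well, whose probes also align with another, 9 of 16 were, with 5 higher and 4 lower. Both settings were chosen after the data were seen.

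Loricrin and involucrin, the major and the early scaffold proteins of the envelope, differed in opposite directions. Lor had 48.6% and 84.2% in GC-2 against 17.9% and 20.4% in GC-1, a difference of 1.74 ± 0.33 log2 that turned to -0.32 under E1A scaling. With only 1 GC-1 array in the fit, the Lor difference (1.65 when replicate 1 was left out and 1.84 when replicate 2 was) no longer passed the threshold. Ivl was not above background in GC-2, with 0.447% and 0.792%, against 35.9% and 28.1% in GC-1, and was at least 11.2-fold lower in GC-2, with -1.03 log2 and past the threshold after normexp correction. Tchh, the trichohyalin of the hair follicle's inner root sheath, had 30.2% and 34.4% in GC-2 against 102.7% and 109.1% in GC-1, and was 1.72 ± 0.23 log2 lower in GC-2. For each of these 3 genes the arrays of the lines did not overlap. Each of the 3 is represented by 1 probe.

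Most S100a genes were measured in both lines, and 8 of the 13 (S100a1, S100a3, S100a4, S100a6, S100a10, S100a11, S100a13 and S100a16) lay above the array's 75th percentile on every array. S100a4, known from fibroblasts and migrating tumour cells, had 43880.0% and 39800.0% in GC-2 against 17380.0% and 22490.0% in GC-1, a difference of 1.08 ± 0.25 log2. S100a13, which takes part in the non-classical release of FGF1, had 2906% and 2805% in GC-2 against 849.9% and 868% in GC-1 (1.73 ± 0.22 log2). Both were higher on each GC-2 array than on either GC-1 array, but their sign turned under E1A scaling (-0.98 and -0.33), and the S100a4 difference was not past the threshold without GC-1 replicate 1 (0.89) or without either GC-2 array. S100a4 also fell short of it with normexp correction (0.83), the median of each array (0.76), quantile normalization (0.49) and no filter on dim probes.

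S100a1, best known from heart and skeletal muscle, had 671% and 655% in GC-2 against 140.3% and 122.9% in GC-1. Its difference of 2.34 ± 0.23 log2 was the largest of the S100a genes that were higher in GC-2, and under E1A scaling it was 0.28 and not past the threshold. S100a3, a gene of the hair cuticle, had 649% and 699% in GC-2 against 264% and 387% in GC-1 (1.08 ± 0.28 log2), and this difference passed the threshold when GC-1 replicate 2 was left out but not when any other array was, and turned to -0.98 under E1A scaling. Normexp correction (0.84), the median of each array (0.76) and no filter on dim probes also left S100a3 short of it. S100a5 was dim, with 14.7% and 9.49% in GC-2 against 2.73% and 2.96% in GC-1 (2.05 ± 0.30 log2), a difference of -0.005 under E1A scaling and 1.39 with normexp correction. S100a6 (0.69 ± 0.27 log2), S100a2 (-0.62 ± 0.25), S100a16 (0.23 ± 0.27), S100a11 (0.20 ± 0.29) and S100a10 (0.002 ± 0.26) were not past the threshold. S100a6 had 50150.0% and 69760.0% in GC-2 against 36580.0% and 36590.0% in GC-1, and S100a2 13.8% and 14.0% in GC-2 against 19.1% and 24.1% in GC-1, so that the lines did not overlap for either. S100a16 had 1423% and 1123% in GC-2 against 944% and 1229% in GC-1, S100a11 3295% and 3284% in GC-2 against 2316% and 3534% in GC-1, and S100a10, the partner of annexin A2, 5552% and 5925% in GC-2 against 4966% and 6608% in GC-1. For these 3 genes the lines overlapped. The S100a11 probe shares 34 identical bases of 37 aligned with a probe of another name that is no member, so its signal may not be that of S100a11 alone. The second probes of S100a16 and S100a10 gave 0.06 and 0.15 log2, also not past the threshold. Both were dimmer on every array than the probe that stood for the gene.

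S100a8 and S100a9, the subunits of calprotectin in myeloid cells and stressed keratinocytes, were lower in GC-2. S100a8 had 4.45% and 2.91% in GC-2, the second not above background, against 19.9% and 20.3% in GC-1 (-2.48 ± 0.29 log2). S100a9 was above background on no GC-2 array and had 15.9% and 6.72% in GC-1, at least 3.64-fold lower in GC-2. S100a14, an epithelial S100 gene, had 9.25% and 3.66% in GC-2, the second not above background, against 31.4% and 33.5% in GC-1 (-2.48 ± 0.46 log2). The lines did not overlap for any of the 3. With normexp background correction they were not past the threshold (-0.39 for S100a8, -0.01 for S100a9 and -0.57 for S100a14), and S100a14 was also not past it with only 1 GC-1 array in the fit.

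Probes within the coding sequence show the family feature. The probes of S100a1 at chr3:90315191-90315250 and S100a8 at chr3:90473778-90473837 (mm9) are printed with the codons of a calcium-binding EF-hand loop in capitals, found by a pattern search in the translated probe.
S100a1: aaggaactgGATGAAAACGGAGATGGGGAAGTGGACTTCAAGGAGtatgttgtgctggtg
S100a8: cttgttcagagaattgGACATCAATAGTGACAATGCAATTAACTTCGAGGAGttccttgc
S100a1, higher in GC-2, and S100a8, lower in GC-2, are thus both read from a stretch that codes for such a loop.

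**Figure D3:**
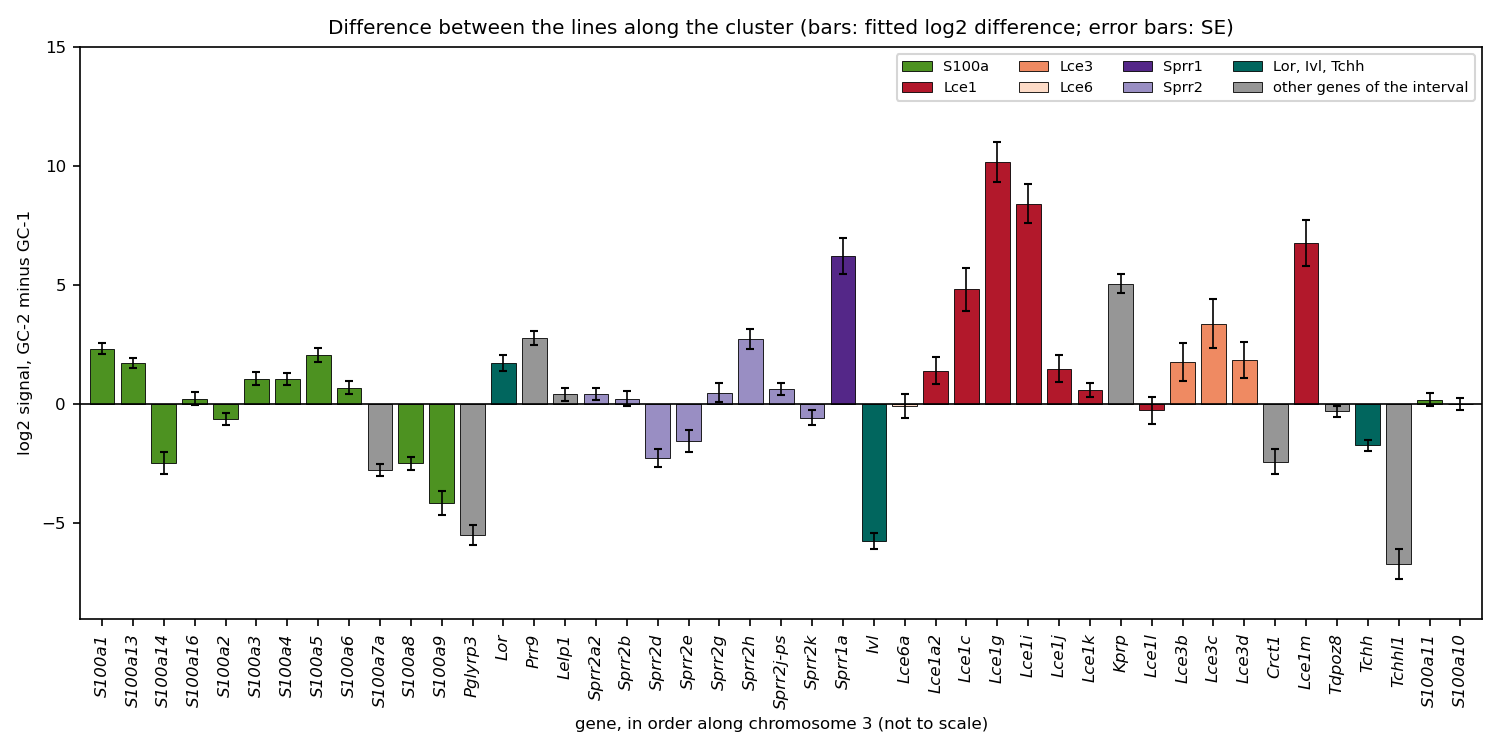
Log2 difference in signal, GC-2 minus GC-1, for 37 members and 8 other genes of the interval, in their order along chromosome 3, as bars with SE (n = 2 arrays per line) and coloured by family. The highest bars are those of Lce1g, Lce1i, Lce1m and Sprr1a, and the lowest those of Tchhl1, Ivl and Pglyrp3.

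Members of opposite direction lay side by side along the cluster. Ivl (at least 11.2-fold lower) lies between Sprr1a (6.23 log2 higher) and the Lce1 genes. The interval also holds 15 reference genes that are no members, of which 8 could be tested with limma, giving 2 higher and 4 lower, 6 of 8 past the threshold against 44.1% of all genes. Kprp, a keratinocyte proline-rich protein gene among the Lce1 genes, had 86.1% and 43.3% in GC-2 against 2.19% and 1.51% in GC-1, the second GC-1 value not above background (5.07 ± 0.41 log2, limma adjusted p = 0.000713). Kprp was thus higher in GC-2, as Lce1g and Lce1i were, but had its higher GC-2 value on replicate 1, where theirs was lower. Prr9, next to Lor, had 73.0% and 104.4% in GC-2 against 13.8% and 11.7% in GC-1 (2.79 ± 0.28 log2, limma adjusted p = 0.00141).

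Lower in GC-2 were 4 neighbours. Tchhl1, a trichohyalin-like S100-fused gene beside Tchh, was above background on no GC-2 array and had 108.9% and 33.1% in GC-1, at least 21.2-fold lower in GC-2 (limma adjusted p = 0.0011). Pglyrp3, a peptidoglycan recognition protein gene, was at least 9.15-fold lower in GC-2 (limma adjusted p = 0.00063). S100a7a, the mouse psoriasin-like S100 gene, had 6.22% and 7.49% in GC-2 against 52.1% and 41.1% in GC-1 (limma adjusted p = 0.00112), the same direction as its neighbours S100a8 and S100a9. Crct1, which lies between Lce3 genes and Lce1m, had 84.4% and 27.9% in GC-2 against 283% and 234% in GC-1 (limma adjusted p = 0.0165), and its second probe was not above background. Lelp1 and Tdpoz8 were not past the threshold.

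Genes that act with the cluster were counted on lists of known roles. Of 28 transcription factors and cofactors of epidermal differentiation, 23 could be tested, and 3 were higher and 14 lower in GC-2 in limma (44.1% of all genes passed, and the list median was -1.48 log2 against -0.13). Hopx, a homeodomain-only cofactor, had 357% and 195.3% in GC-2 against 3.58% and 2.92% in GC-1 (6.35 ± 0.36 log2, limma adjusted p = 0.000278). Nfe2l3, of the Nrf family, fell by 7.23 ± 0.59 log2, with 24.3% and 7.06% in GC-2 against 2122% and 1813% in GC-1 (limma adjusted p = 0.000734). Notch1, which starts differentiation in suprabasal cells, fell by 6.23 ± 0.26 log2 (limma adjusted p = 0.000161), and Grhl2, a Grainyhead-like factor of epithelia, was above background in GC-1 only and at least 7.40-fold lower in GC-2 (limma adjusted p = 0.00873). The following were named for their role after their values had been seen. Klf4, a barrier regulator, fell by 1.88 ± 0.32 log2, with 3109% and 2026% in GC-2 against 8021% and 10700.0% in GC-1 (limma adjusted p = 0.00663). The AP-1 gene Fosl1 rose by 2.73 ± 0.31 log2 (limma adjusted p = 0.00188), Fosl2 fell by 2.18 ± 0.31 (limma adjusted p = 0.00389), and Jun and Junb were not past the threshold (-0.01 and 0.37).

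**Figure D4:**
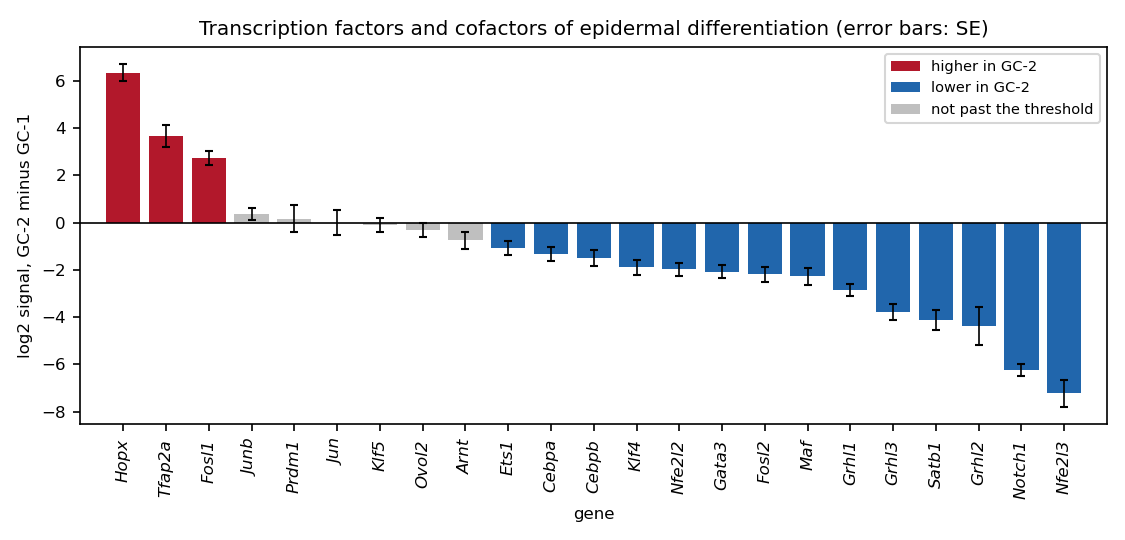
Log2 difference in signal, GC-2 minus GC-1, with SE (n = 2 arrays per line) of the 23 testable transcription factors and cofactors of epidermal differentiation, in order of size, red where higher and blue where lower in GC-2 past limma's threshold and grey otherwise. Hopx, Tfap2a and Fosl1 are the 3 red bars, and 14 bars are blue, with Nfe2l3 lowest.

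Envelope and barrier genes outside the cluster gave 3 higher and 6 lower of 19 tested (47.4%, close to the 44.1% of all genes), with a median of -0.25 log2. Evpl, a plakin that anchors the envelope, fell by 9.22 ± 0.35 log2 (limma adjusted p = 0.000146), and the plakin gene Ppl fell by 8.45 ± 1.08 (limma adjusted p = 0.0028), being above background on 1 of the 2 GC-2 arrays. Dmkn, a secreted epidermal protein gene, fell by 5.36 ± 0.28 log2 (limma adjusted p = 0.00023), and the transglutaminase gene Tgm5 was at least 6.11-fold lower in GC-2 (limma adjusted p = 0.000462). The 3 higher genes, named after their values were seen, were Cst6, a protease inhibitor of the barrier (4.25 ± 0.28 log2, limma adjusted p = 0.000411), Elovl4, a fatty acid elongase of barrier lipids (4.01 ± 0.32, limma adjusted p = 0.000713), and Krtdap (1.02 ± 0.28, limma adjusted p = 0.0331). The cross-linking enzyme gene Tgm1, likewise named, was above background on no array. Of 15 basal keratinocyte genes, 14 were tested, with 2 higher and 6 lower (57.1%, against 44.1% of all genes). The summed relative signal of the list was 3387% and 3055% in GC-2 against 32220.0% and 35190.0% in GC-1. Krt14 made up most of that sum, with 24.6% and 20.7% in GC-2 against 24900.0% and 28070.0% in GC-1 (limma adjusted p = 9.06e-05), while Ripk4 was above background in GC-1 only and at least 541-fold lower in GC-2 (limma adjusted p = 0.000118). Perp and Itgb4 fell by 5.28 ± 0.41 and 4.56 ± 0.37 log2 (limma adjusted p = 0.000653 and 0.000714). Named after their values were seen, Sfn and Dst rose by 2.47 ± 0.24 and 0.81 ± 0.25 log2 (limma adjusted p = 0.00126 and 0.0455), and Krt5 (0.25), Trp63 (0.68) and Itga6 (0.28) were not past the threshold. The part of these genes in the Lce and Sprr differences was not tested.

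For the S100a genes, 13 partners and receptors of S100 proteins were tested, with 2 higher and 4 lower in GC-2 (46.2%, close to the 44.1% of all genes). The receptor genes Alcam and Tlr4 fell by 3.51 ± 0.33 and 3.03 ± 0.38 log2 (limma adjusted p = 0.0011 and 0.00276), Tlr4 being a receptor of calprotectin. Bsg, another receptor, rose by 1.75 ± 0.26 log2 (limma adjusted p = 0.00448), and Anxa1, whose protein binds S100a11, fell by 1.49 ± 0.28 (limma adjusted p = 0.00984). Of 3 tested S100 genes on other chromosomes or named for S100 binding, 0 were higher and 2 lower (66.7%, against 44.1% of all genes). Genes of myeloid cells, the cells in which calprotectin is most abundant, gave 5 higher and 2 lower of 11 tested (63.6%, against 44.1% of all genes). Their summed relative signal was 2125% and 2026% in GC-2 against 1454% and 1367% in GC-1. Ly6g and Csf1r rose by 5.22 ± 0.32 and 3.51 ± 0.25 log2 (limma adjusted p = 0.000344 and 0.000514), Camp rose by 1.87 ± 0.36 (limma adjusted p = 0.0096), and Ltf was at least 4.26-fold lower in GC-2 (limma adjusted p = 0.000392). Of the 15 genes of the list, Tyrobp, Adgre1, Spi1 and Ngp were above background on no array, while 9 were above it on all 4 arrays, among them Ptprc, Itgam and Cd14, named after their values were seen. Ptprc had 285% and 327% in GC-2 against 353% and 431% in GC-1, Itgam 316% and 467% in GC-2 against 142.8% and 157.6% in GC-1 (limma adjusted p = 0.0134), and Cd14 789.6% and 593% in GC-2 against 711% and 574% in GC-1. Their part in the S100a8 and S100a9 differences was not tested.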

How the data were processed

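Per the file headers, Agilent Feature Extraction 11.5.1.1 read the scans and gave each spot a processed intensity after background subtraction and detrending, the mean intensity, the local background intensity, and flags of 0 or 1, with no normalization between arrays. The authors' deposited series table holds log2 values, 1 per gene name. For 380 or 381 rows named by a probe these equalled the log2 processed intensity minus 1 constant per array (SD of the difference 0.00174 to 0.00237), and for single-probe genes 99.9% or more lay within 0.02 of it. Its column medians were -3.64 and -3.53 for GC-2 and -3.78 and -3.67 for GC-1. Genes were not centred, and its way of combining several probes of a gene is unknown here.

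For the analysis, log2 processed intensities were averaged over a probe's spots, leaving out control and irregular spots, and each array's 75th percentile was subtracted. Testing required a probe to be well above background on each array of GC-2 or of GC-1, which 36692 probes were, while 21 more had a missing value. The test was limma 3.58.1 under R 4.3.3, two-sided. The p-values of all tested probes were adjusted by Benjamini and Hochberg's method and called at 0.05. On simulated arrays that kept the called differences, 61% of added 2-fold differences and 97.5% of added 4-fold differences were called. Unchanged probes made up 2.65% of those calls. With only a few probes changed 4-fold, 0 were called, so a gene not past the threshold can still differ. The tested probe with the highest mean stood for a gene. Names came from the RefSeq table of GRCm38, by accession for 32994 probes, symbol for 10224 and synonym for 520, and 12867 kept the file's name. Members kept the file's names. Where no array of a line showed a probe above background, its level there is a bound: "at least N-fold" sets the other line's mean against the higher of that probe's signal and the lowest signal well above background. It bounds the difference of means under this background subtraction, and single arrays or other corrections can give less. Members above background on both arrays of a line were named with their values, as were up to 12 changed genes of the interval and up to 4 per list. The members and lists were chosen with earlier results of these data known. Proteins were not analysed here. A gene of the regulator list is not reported here.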

Additional observations from a re-analysis of the deposited data

How the results depend on the processing

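The number of arrays limits the precision, and values near the lowest signal above background are the least certain. Of 473 values of the 37 members under alternatives, 378 kept their direction and side of the threshold, 35 kept their direction but fell short of it, 22 passed it newly and 38 changed sign. Genes called numbered 15792 with E1A scaling (649 higher and 15143 lower) and between 4645 (without GC-1 replicate 1) and 5976 when single arrays were left out. Required on all 4 arrays, signal above background left 7 epidermal members, 5 S100a genes and 3 other genes of the interval past the threshold. With normexp background correction 3 S100a genes passed, and between 5 (without GC-1 replicate 1) and 7 did when single arrays were left out. With every array in the fit, epidermal members called ranged from 7 to 17, against 12 in the report. The 7 came from requiring signal above background on all 4 arrays, and the 17 from E1A scaling. With the replicate number as a block, 7797 genes, 15 epidermal members, 8 S100a genes and 6 other genes of the interval passed. The labels do not pair the arrays, and deviations of same-numbered arrays correlated at 0.124. Counts of members measured in a line stayed within 1.5 times under the positive-and-significant flag (26 epidermal in GC-2 and 28 in GC-1), the brightest negative control, and with 1 array left out. The following log2 values, GC-2 minus GC-1, had the opposite sign to those of the report, and the cause was not tested unless the scaling itself shifts every value. E1A scaling gave -0.65 for Lce1a2, -0.56 for Lce1j, -1.46 for Lce1k, -0.29 for Lce3b, -0.19 for Lce3d, -0.32 for Lor, -1.64 for Sprr2a2, -1.83 for Sprr2b, -1.58 for Sprr2g, -1.40 for Sprr2j-ps, -0.98 for S100a3, -0.98 for S100a4, -0.005 for S100a5, -1.37 for S100a6, -2.06 for S100a10, -1.86 for S100a11, -0.33 for S100a13 and -1.83 for S100a16. Normexp correction gave 0.46 for Lce1l, 0.37 for Lce6a, 0.69 for Sprr2d, 0.14 for S100a2, -0.21 for S100a10 and -0.016 for S100a11. The median of each array gave -0.31 for S100a10, -0.11 for S100a11, -0.084 for S100a16 and -0.085 for Sprr2b, and quantile normalization gave -0.026 for S100a6 and -0.15 for Sprr2a2. With single arrays left out, Lce1l ranged from -1.13 (without GC-2 replicate 2) to 0.62 (without GC-2 replicate 1), Lce6a from -0.81 to 0.70 with the same arrays left out, and Sprr2g from -0.066 (without GC-2 replicate 2) to 1.03 (without GC-2 replicate 1). S100a10 ranged from -0.20 to 0.21, S100a11 from -0.10 to 0.51 and Sprr2b from -0.10 to 0.56, each lowest without GC-1 replicate 1 and highest without GC-1 replicate 2.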
